A study of Rattus norvegicus with 12 samples.

Results

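Retinoic acid is a hormone that cells make from vitamin A, and the 7 rat genes described here act at successive steps of that route: Rbp4 as the carrier of retinol, Aldh1a1 and Aldh1a2 as enzymes of synthesis, Crabp2 as a carrier of retinoic acid inside the cell, and Rara, Rarb and Rxra as nuclear receptors. They were chosen by gene name. Each had exactly 1 probe set with that single symbol in the platform annotation, so they make up 7 of the 14217 genes, and 7 of the 31042 probe sets, on the array. All 7 passed the filter on low signal, which left 22599 probe sets for testing, but Rbp4 and Rxra passed it only through the week 4 arrays.

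RNA was measured on 12 Affymetrix arrays. Recombined tissue (n = 2) joined ureteric buds that had formed in vitro and had not branched with metanephric mesenchyme, and was cultured for 6 days. The other groups were freshly dissected rat kidneys: 3 arrays of embryonic kidney at E13, 4 at E18, and 3 of kidney from rats aged 4 weeks (Wk4), where E counts days of gestation. The labels give no strain, sex, genotype or agent for any group, and do not relate the replicates to animals or litters; p-values therefore reflect array-to-array spread that may be only technical. The design sets the built tissue beside the kidney at each stage and counts a change from 3-fold upward.

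Levels below are the authors' deposited signals, scaled by them per array, and a level is never set against that of another probe set. Differences are given as log2(signal + 271) ± SE, with limma's p adjusted over all 22599 probe sets. "Rose" and "fell" are used where the adjusted p was under 0.05, and "called" where the difference was also at least 3-fold. The median difference over all tested probe sets was -0.12 for Wk4 against E18, -0.11 for Wk4 against E13 and 0.19 for recombined tissue against Wk4, and within 0.02 of 0 in the other comparisons. The median signal of an array lay between 799 and 1020. The embryonic arrays fell into 2 sets by their residuals, E13 replicate 1 with E18 replicates 1 to 3, and E13 replicates 2 and 3 with E18 replicate 4. With the set as a covariate none of the calls on the 7 genes changed. That fit placed the Wk4 and recombined arrays in the first set by assumption. It therefore checks the set only for E18 against E13, and comparisons with Wk4 or recombined tissue rest on that placement.

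Vitamin A travels in the blood as retinol bound to Rbp4. Cells oxidise retinol to retinal, and retinal dehydrogenases of the Aldh1a family then make retinoic acid, a step that is not reversed. Crabp2 hands retinoic acid to heterodimers of a retinoic acid receptor (RAR) and a retinoid X receptor (RXR) on DNA, and Cyp26 enzymes break it down. In the embryonic mouse kidney, stromal cells make retinoic acid with Aldh1a2, and signalling through retinoic acid receptors keeps the receptor gene Ret active in the ureteric bud.

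**Figure D1:**
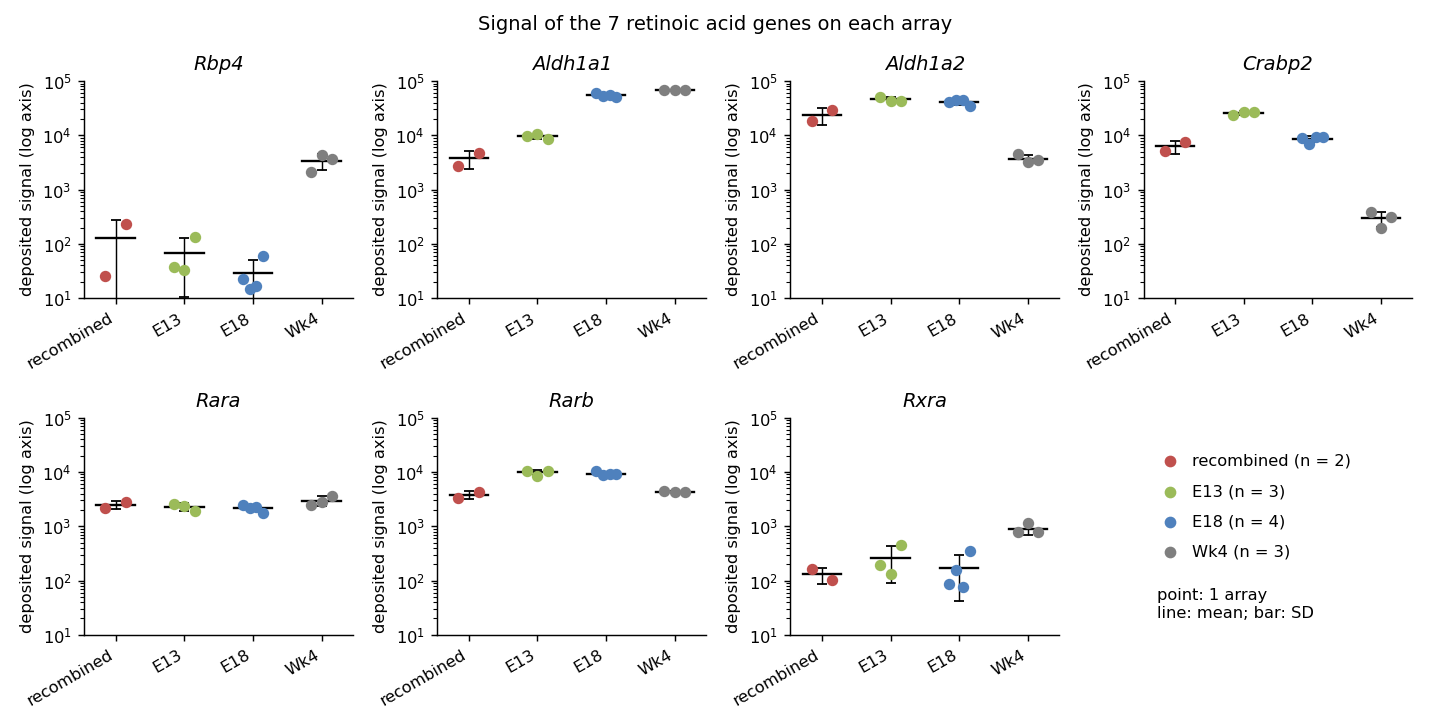
Deposited signal of each of the 7 genes (log axis) on every array, with 1 point per array, the group mean as a line and the SD as a bar; lower bars that pass below the axis are cut there. Aldh1a1 reads 50892 to 68785 on the E18 and Wk4 arrays and 2774 to 10652 on the recombined and E13 arrays, while Aldh1a2 and Crabp2 are lowest at Wk4 and Rbp4 is above 229 only at Wk4.

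The 2 retinal dehydrogenase genes went opposite ways from E13 to Wk4, but their called steps fell in different intervals. Aldh1a1 was higher in the E18 and Wk4 kidneys than at E13, and Aldh1a2 was high in both embryonic kidneys and about 10-fold lower at Wk4. In recombined tissue both were below their E13 level.

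Aldh1a1 encodes a cytosolic retinal dehydrogenase that also oxidises other aldehydes. It read 2774 and 4731 in recombined tissue, against 9820, 10652 and 8617 at E13, 59191, 52236, 55940 and 50892 at E18, and 67218, 68785 and 67177 at Wk4. The groups did not overlap, and their order was recombined, E13, E18, Wk4. From E13, Aldh1a1 rose at E18 by 2.46 ± 0.14, or 5.51-fold (adjusted p = 2.2e-08), and at Wk4 by 2.78 ± 0.15 (adjusted p = 6.89e-10), and both were called. The E18 and Wk4 levels were neighbours that did not pass the test of their difference (0.31 ± 0.14, adjusted p = 0.0685). The difference did pass in a limma fit of only those 7 arrays (adjusted p = 0.0026). It also passed with median centring (0.36, adjusted p = 0.0304) and with 4 times the pseudocount (0.31, adjusted p = 0.0458). Leaving out a recombined array left the difference at 0.31.

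In recombined tissue Aldh1a1 was called lower than in both later kidneys. The difference was -3.81 ± 0.16 against E18 (adjusted p = 1.03e-09), and 0.0708% of the tested probe sets had a lower one. Against Wk4 it was -4.12 ± 0.16 (adjusted p = 7.29e-11). Aldh1a1 also fell below its E13 level, by -1.35 ± 0.16 or 2.55-fold (adjusted p = 2.98e-05), which was not called with both recombined arrays but was called without recombined replicate 2 (-1.71), and was -0.99 without recombined replicate 1. Rat has a close relative of this gene, Aldh1a7, and whether the probe set also reads it was not tested.

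Aldh1a2 encodes the main retinal dehydrogenase of the early embryo. It read 18100 and 29424 in recombined tissue, against 50430, 43449 and 43532 at E13, 40546, 44277, 44798 and 34177 at E18, and 4475, 3178 and 3520 at Wk4. The E13 and E18 arrays overlapped, every Wk4 array lay below all others, and both recombined arrays lay between the Wk4 and the embryonic kidneys. No difference was detected between E18 and E13 (-0.17 ± 0.16, adjusted p = 0.525). At Wk4 the gene was called lower, by -3.37 ± 0.16 or 10.4-fold against E18 (adjusted p = 3.91e-10) and by -3.54 ± 0.17 against E13 (adjusted p = 2.48e-10).

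Recombined tissue had an Aldh1a2 level above the mature kidney, called at 2.56 ± 0.19 against Wk4 or 5.90-fold (adjusted p = 4.56e-08). It was lower than at E13 by -0.98 ± 0.19 or 1.97-fold (adjusted p = 0.00131) and than at E18 by -0.81 ± 0.18 (adjusted p = 0.00374), neither called. The recombined arrays differed from each other, and without replicate 1 the differences shrank to -0.63 against E13 and -0.47 against E18, where the adjusted p became 0.0948. Without replicate 2 they were -1.32 and -1.16.

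Cell type markers moved beside these enzymes. Of 8 stroma markers 7 were on the array, none at 0, with a summed signal of 262641 to 337352 in recombined tissue, 105670 to 114315 at E13, 132944 to 140789 at E18 and 58157 to 80515 at Wk4. The sum was lowest at Wk4, as Aldh1a2 was, with 5 of the 7 markers falling against E18 and 0 rising (limma). In recombined tissue the sum was carried by the matrix genes Col1a1, with a mean of 138645, and Dcn, with 62038; against E13, 5 of the 7 rose and 2 fell, Tcf21 (-0.88 ± 0.22) and Meis1 (-0.52 ± 0.18), in the direction of Aldh1a2. The 8 ureteric bud and collecting duct markers summed to 8999 to 11099 in recombined tissue, 14224 to 15855 at E13, 37137 to 46793 at E18 and 103479 to 114496 at Wk4. The Wk4 sum came mostly from Calb1, with a mean of 50938, and Aqp2, with 31680: in Wk4 against E18, 3 of the 8 rose and 5 fell, among them Ret, Gata3 (-1.08 ± 0.24) and Krt18 (-0.93 ± 0.19). For mesothelium, a covering layer that makes Aldh1a2 in embryos, 5 of 6 markers summed to 15903 to 21755 in recombined tissue, 21793 to 30928 at E13, 21892 to 26426 at E18 and 13615 to 17622 at Wk4. Wt1 alone made up most of this sum except at Wk4, with means of 12737 in recombined tissue, 21640 at E13 and 18225 at E18. The sum therefore follows Wt1 and is no measure of mesothelium as a whole. Msln went another way, with means of 1525 in recombined tissue, 397 at E13, 1682 at E18 and 914 at Wk4. Gpm6a, like Wt1, had a lower mean in recombined tissue (278) than at E13 (946). In recombined tissue against E13, 1 of the 5 rose and 2 fell. In Wk4 against E18, 3 of these 5 rose, such as Gpm6a (2.53 ± 0.27), and 2 fell, of which Wt1 (2385 at Wk4 against 18225 at E18) set the lower sum. Of all tested probe sets 54.7% passed by adjusted p in Wk4 against E18, and 32.6% fell. For recombined tissue against E13 these shares were 31.0% and 15.2%. The part of cell composition in these results was not tested, and in whole tissue fewer cells of a type and less RNA per cell cannot be told apart.

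The promoter windows of the 2 enzyme genes are shown because their levels diverged between the kidneys. Each holds RefSeq's 250 bases before to 50 after the annotated start, 5′ to 3′ on the gene's strand, in the GRCr8 build at chr1:227537370-227537669 (+ strand) for Aldh1a1 and chr8:80758391-80758690 (+ strand) for Aldh1a2. Capitals mark ATGCAAAT, an octamer known as a site of POU family factors, which was picked after the 2 windows had been compared.
Aldh1a1: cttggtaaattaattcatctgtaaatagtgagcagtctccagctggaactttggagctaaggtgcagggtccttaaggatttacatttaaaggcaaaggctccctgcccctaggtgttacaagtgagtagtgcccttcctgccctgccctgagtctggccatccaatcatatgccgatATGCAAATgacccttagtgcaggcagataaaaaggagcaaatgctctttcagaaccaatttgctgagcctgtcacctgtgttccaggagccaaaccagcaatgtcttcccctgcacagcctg
Aldh1a2: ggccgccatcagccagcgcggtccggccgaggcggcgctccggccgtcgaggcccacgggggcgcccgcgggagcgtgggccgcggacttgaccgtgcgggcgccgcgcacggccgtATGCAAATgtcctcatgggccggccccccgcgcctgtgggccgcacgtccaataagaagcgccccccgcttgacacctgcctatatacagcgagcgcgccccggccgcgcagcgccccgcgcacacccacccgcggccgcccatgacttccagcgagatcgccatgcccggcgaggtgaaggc
The octamer stood at bases 179 to 186 and 118 to 125 of these windows, in no other of the 7 genes, and 1.78% of all 33469 promoter windows hold it on either strand. The windows differ in base composition: that of Aldh1a1 has 1 CG dinucleotide and 48.3% G and C, that of Aldh1a2 has 47 and 76.0%. Across all windows 5.47% have fewer CG dinucleotides than Aldh1a1 and 98.7% fewer than Aldh1a2. The other 5 genes had between 14 (Crabp2) and 62 (Rxra).

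Among the remaining enzymes of the route, 24 were listed, 17 were on the array and 12 were tested. In Wk4 against E18, 3 were called higher and 1 lower, with a median difference of 0.30 against -0.12 over all probe sets. Of all tested probe sets 5.76% were called higher and 5.43% lower. Adh1c, an alcohol dehydrogenase that oxidises retinol, averaged 42482 ± 2598 at Wk4 and 3624 ± 265 at E18 (SD, n = 3 and 4), a difference of 3.46 ± 0.28 (adjusted p = 8.95e-08) by its brighter probe set and of 1.97 ± 0.18 by the other. Rdh16, a retinol dehydrogenase, rose by 2.28 ± 0.33 and Retsat, which saturates retinol, by 2.02 ± 0.14. With 4 times the pseudocount Rdh16 was not called (1.46). Aldh1a3, the third retinal dehydrogenase gene, fell by 2.70 ± 0.20, with 2446 ± 533 at Wk4 against 17266 ± 2161 at E18.

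Between E18 and E13, 1 of the 12 enzymes was called, beside 2.35% of all tested probe sets. It was Adh1c (3.48 ± 0.28), though its dimmer probe set gave only 0.24 ± 0.18. Recombined tissue had 1 enzyme called higher than E13, again Adh1c (3.03 ± 0.33; 0.41 ± 0.22 by the dimmer probe set), whose mean there was 3126 ± 2616 (SD, n = 2). Against E18 it had 1 called lower, Dhrs4, an enzyme of retinal reduction (-1.65 ± 0.18). Dhrs4 was no longer called without recombined replicate 1 (-1.25), with 4 times the pseudocount (-1.33) or as the mean of its probe sets (-0.93). Against Wk4, 1 was higher and 5 were lower. Aldh1a3 was the one that was higher (2.22 ± 0.24), as Aldh1a2 was. The shares of all tested probe sets called in recombined tissue were 4.86% against E13, 4.41% against E18 and 15.2% against Wk4.

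Rbp4, the plasma carrier of retinol, was a gene of the mature kidney in these arrays. It read 25.6 and 229 in recombined tissue, against 38.2, 32.4 and 136 at E13, 22.6, 14.8, 16.5 and 60.6 at E18, and 2134, 4312 and 3738 at Wk4. Only the 3 Wk4 arrays were above their array's 40th percentile, and the recombined and embryonic groups overlapped one another. Rbp4 was called higher at Wk4 than at E18, by 3.57 ± 0.26 or 11.8-fold (adjusted p = 3.56e-08), and than at E13, by 3.39 ± 0.28 (adjusted p = 8.47e-08). Without the pseudocount these differences were 7.08 and 5.88, since it draws in the low values. In recombined tissue it was called lower than at Wk4, by -3.20 ± 0.31 (adjusted p = 8.7e-07), and did not pass against E13 (0.19 ± 0.31) or E18 (0.37 ± 0.30).

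Markers of 2 other sources were set beside Rbp4. The 7 proximal tubule markers summed to 7984 to 9199 in recombined tissue, 2231 to 3307 at E13, 34843 to 50365 at E18 and 457231 to 532256 at Wk4. The recombined sum came mostly from Anpep, with a mean of 5994, and 4 of the 7 were below the 40th percentile on all recombined arrays. In recombined tissue against E13, 1 of the 7 rose and 0 fell (limma), where 31.0% of all tested probe sets passed by adjusted p. Liver is the main source of plasma Rbp4, and the 7 hepatocyte markers summed to 1467 to 1538 in recombined tissue, 1005 to 1742 at E13, 4550 to 5817 at E18 and 3242 to 10868 at Wk4. At Wk4 Apoa1 and Apoa2 were below the 40th percentile on all arrays, while Fga averaged 1686 at Wk4 against 181 at E18 (2.13 ± 0.27, adjusted p = 9.8e-06). Of the 5 tested, Fga was called higher and Afp lower (-2.38 ± 0.33) at Wk4 against E18, where 11.2% of all tested probe sets were called. Alb and Fga were called higher against E13, where 17.9% of all were called. No marker was at 0. The part of these markers in the Rbp4 result was not tested.

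Of 11 listed genes of retinol uptake, transport and storage, 9 were on the array and 6 were tested. In E18 against E13, 1 was called higher and 1 lower, and the median difference was 0.90 against -0.02 over all probe sets. Of all tested probe sets 1.94% were called higher and 0.412% lower. Lrp2, the megalin receptor that takes Rbp4 back up from the filtrate, stood at 16712 ± 1800 at E18 and 978 ± 218 at E13 (SD, n = 4 and 3), a rise of 3.77 ± 0.23 (adjusted p = 4.68e-08), and rose again at Wk4 against E18 by 1.87 ± 0.23. Stra6, the cell surface receptor for Rbp4, went the other way, with 2276 ± 141 at E18 and 13347 ± 2997 at E13 and a fall of -2.40 ± 0.14 by its brightest probe set. Its probe sets disagreed in size: the mean of the 5 gave -1.52 and was not called. In recombined tissue Lrp2 was called lower than at E18 (-3.30 ± 0.26) and at Wk4 (-5.17 ± 0.28). Cd36, a scavenger receptor that takes up lipids, was called higher in recombined tissue than at E13 (2.03 ± 0.54). That call rested on recombined replicate 1, without which the difference was 0.81. The call was also lost with 4 times the pseudocount (1.52).

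Crabp2, the carrier that delivers retinoic acid to its receptors, fell at each step of kidney development. It read 5086 and 7497 in recombined tissue, against 23545, 27289 and 27079 at E13, 8890, 6945, 9128 and 9243 at E18, and 380, 200 and 308 at Wk4. All 3 Wk4 arrays were below their 40th percentile, the E13 arrays were above all others, and recombined tissue overlapped with E18. Against E18 the Wk4 difference was -3.96 ± 0.16 or 15.6-fold (adjusted p = 8.96e-11), and against E13 it was -5.54 ± 0.17 or 46.6-fold (adjusted p = 3.2e-12), with 0.0531% of tested probe sets lower. As the Wk4 signals lay near the pseudocount, the sizes depend on it: without it they were -4.89 and -6.50, and with 4 times as much -2.80 and -4.29, all called. At E18 against E13 it fell by 1.58 ± 0.16 (adjusted p = 5.65e-06), which at 2.99-fold just missed the call. That call was made without the pseudocount (-1.61), with median centring (-1.66), and without E13 replicate 1 (-1.65), E18 replicate 1 (-1.60), E18 replicate 3 (-1.61) or E18 replicate 4 (-1.62).

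Recombined tissue held Crabp2 near the E18 level. It was called lower than at E13, by -2.02 ± 0.19 or 4.06-fold (adjusted p = 2.63e-06), and called higher than at Wk4, by 3.52 ± 0.19 (adjusted p = 1.41e-09). Against E18 the difference was -0.44 ± 0.18 (adjusted p = 0.0817), and it was -0.71 without recombined replicate 2. It passed by limma with median centring (-0.55, adjusted p = 0.0337) and without E18 replicate 2 (-0.54, adjusted p = 0.042).

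The genes of retinoic acid binding and breakdown numbered 6, with 5 on the array and all 5 tested. In Wk4 against E18, 3 were called lower and 0 higher (limma), with a median of -1.97. At an adjusted p under 0.05, 4 fell and 1 rose. Of all tested probe sets 5.43% were called lower and 5.76% higher, and 54.7% passed by adjusted p. Crabp1, a second binding protein, had 595 ± 203 at Wk4 and 8030 ± 1873 at E18 (-3.26 ± 0.19, adjusted p = 2.39e-09), and it had also fallen at E18 against its E13 mean of 40927 ± 5708 (-2.33 ± 0.19). Fabp5, which can carry retinoic acid to another nuclear receptor, fell by 1.97 ± 0.13 at Wk4 against E18. Cyp26b1, which degrades retinoic acid, had 1018 ± 197 in recombined tissue, 7335 ± 661 at E13, 6985 ± 1333 at E18 and 1136 ± 208 at Wk4 (SD).

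Cyp26b1 was called lower in recombined tissue than at E13 (-2.57 ± 0.19, adjusted p = 3.58e-07) and than at E18 (-2.48 ± 0.18), and did not differ detectably from Wk4 (-0.12 ± 0.19). Its dimmer probe set fell less, by -1.43 ± 0.30 against E13 and -1.04 ± 0.29 against E18, and was not called. Crabp1 was also called lower in recombined tissue than at E13 (-1.93 ± 0.22). Crabp1 (3.66 ± 0.22) and Fabp5 (1.86 ± 0.16) were called higher there than at Wk4.

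The 3 receptor genes did not move together. Rara passed in no comparison under the settings used here, though Wk4 against E18 passed under some others. Rarb fell in both recombined and Wk4 tissue, and Rxra rose at Wk4 from a low signal. None of the 3 was called in any comparison.

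Rara encodes the alpha retinoic acid receptor. It read 2207 and 2812 in recombined tissue, against 2570, 2391 and 1895 at E13, 2447, 2157, 2299 and 1773 at E18, and 2428, 2817 and 3625 at Wk4. The groups overlapped in all 6 comparisons, and no neighbours in the order E18, E13, recombined, Wk4 could be told apart. The widest difference was that of Wk4 against E18, 0.39 ± 0.17 (adjusted p = 0.0566), which passed under other scalings, at 0.52 after quantile normalization (adjusted p = 0.0123) and 0.45 with median centring (adjusted p = 0.0367). The adjusted p was also 0.0307 without Wk4 replicate 1. With all arrays and the deposited scaling it was 0.0485 under a 60th percentile filter. It was 0.0495 with each gene's probe sets averaged, and also in a fit of only the Wk4 and E18 arrays. Leaving out a recombined array left the difference at 0.39. Naa60 (r = 0.946), an acetyltransferase gene, came closest to its pattern over the 12 arrays, and no gene exceeded 0.95.

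Rarb encodes the beta receptor and is itself a classic target of retinoic acid. It read 3322 and 4282 in recombined tissue, against 10261, 8620 and 10542 at E13, 10368, 8625, 9009 and 9206 at E18, and 4448, 4329 and 4280 at Wk4. The 5 recombined and Wk4 arrays lay below all 7 embryonic kidney arrays. At Wk4 Rarb fell by 1.05 ± 0.12 or 2.07-fold against E18 (adjusted p = 2.94e-06) and by -1.12 ± 0.13 against E13 (adjusted p = 2.2e-06). In recombined tissue it fell by 1.31 ± 0.14 or 2.48-fold against E13 (adjusted p = 9.44e-06) and by -1.24 ± 0.13 against E18 (adjusted p = 1.06e-05). Only 1.70% of tested probe sets were lower in the contrast with E13, against 13.5% in Wk4 against E18. Recombined tissue and Wk4 did not differ detectably (-0.19 ± 0.14, adjusted p = 0.269), nor did E18 and E13 (-0.07 ± 0.12, adjusted p = 0.73).

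The Rarb promoter is shown because it carries the kind of site through which retinoic acid acts on its own receptor, and that of Cyp26a1, a retinoic acid degrading enzyme, because it holds the same kind. The windows are those of RefSeq in GRCr8, at chr15:11336142-11336441 (+ strand) for Rarb and chr1:244883572-244883871 (+ strand) for Cyp26a1. Capitals mark direct repeats spaced by 5 bases and searched on both strands, each unit being AGGTCA or else AGTTCA, or else GGTTCA, or else GGGTCA.
Rarb: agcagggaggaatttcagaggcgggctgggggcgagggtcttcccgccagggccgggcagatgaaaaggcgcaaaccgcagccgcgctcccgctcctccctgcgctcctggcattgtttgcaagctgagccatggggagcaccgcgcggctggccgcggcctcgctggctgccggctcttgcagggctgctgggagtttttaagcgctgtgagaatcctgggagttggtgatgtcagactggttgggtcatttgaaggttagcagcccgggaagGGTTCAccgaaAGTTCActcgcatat
Cyp26a1: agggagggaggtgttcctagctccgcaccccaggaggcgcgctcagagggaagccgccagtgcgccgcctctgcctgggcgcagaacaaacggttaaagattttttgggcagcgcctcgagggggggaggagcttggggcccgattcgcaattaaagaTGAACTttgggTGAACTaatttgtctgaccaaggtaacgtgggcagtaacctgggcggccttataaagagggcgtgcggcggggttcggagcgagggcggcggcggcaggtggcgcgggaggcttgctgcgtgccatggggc
In Rarb the repeat is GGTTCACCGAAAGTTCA, at bases 275 to 291 of the window on the gene's strand, and in Cyp26a1 it is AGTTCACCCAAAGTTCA, read on the opposite strand at bases 159 to 175. Of all 33469 windows 0.382% hold such a repeat, and of the 7 genes only Rarb does. Repeats spaced by 1 base (0.233% of windows) or 2 bases (0.170%) were found in none of the 7. Cyp26a1 itself was dim, with 619 ± 43.9 in recombined tissue, 501 ± 160 at E13, 774 ± 117 at E18 and 275 ± 282 at Wk4 (SD), and fell only at Wk4 against E18 (-1.05 ± 0.28, adjusted p = 0.00511). Among the listed marker genes Hbe1, an embryonic globin gene, also holds such a repeat.

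Rxra encodes the alpha retinoid X receptor, the partner of RARs. It read 161 and 100 in recombined tissue, against 193, 133 and 456 at E13, 86.2, 158, 76.9 and 349 at E18, and 777, 1154 and 771 at Wk4. The Wk4 arrays lay above all others and were the only ones above the 40th percentile, while the other 3 groups overlapped. The highest embryonic arrays were E13 replicate 3 and E18 replicate 4, both in the second embryonic set, but E13 replicate 2 of that set was the lowest at E13 (133). Rxra rose at Wk4 by 1.44 ± 0.27 against E18 (adjusted p = 0.000391) and by 1.17 ± 0.29 against E13 (adjusted p = 0.00284), and in recombined tissue it was lower than at Wk4 by -1.53 ± 0.33 (adjusted p = 0.0011). None of these was called, and the difference from E13 was 2.25-fold. Without E18 replicate 4 the Wk4 difference from E18 was called at 1.62, and the recombined difference from Wk4 was called at -1.64, -1.61 and -1.61 without recombined replicate 1, Wk4 replicate 1 or Wk4 replicate 3. Without the pseudocount the 3 differences were 2.68, 1.96 and -2.80, all called.

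For the other receptors and the cofactors, 15 genes were listed, 14 were on the array and 13 were tested, and their median differences lay between -0.16 and 0.18 in the 6 comparisons. The remaining RAR gene, Rarg, and Rxrb passed in none of the 6 comparisons, while Rxrg rose at Wk4 by 0.90 ± 0.20 against E18 (adjusted p = 0.00133). In Wk4 against E18, 1 was called higher and 1 lower, beside 5.76% and 5.43% of all tested probe sets. Kat2b, a histone acetyltransferase, rose by 1.68 ± 0.11 (adjusted p = 1.46e-08; not called as the mean of its probe sets), and Nsd1, a histone methyltransferase, fell by 1.59 ± 0.12, a call lost without E18 replicate 4 (-1.55) or Wk4 replicate 1 (-1.57), and as the mean of its probe sets (-0.63). The Nsd1 call was also lost with median centring (-1.54), quantile normalization (-1.56) and 4 times the pseudocount (-1.44). Trim24, a cofactor of Rara, had 5693 ± 1673 in recombined tissue and 1623 ± 331 at Wk4 (1.64 ± 0.18, called). It was not called without recombined replicate 2 (1.35) or Wk4 replicate 2 (1.55). Nor was it called with median centring (1.48), quantile normalization (1.54) or 4 times the pseudocount (1.31).

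**Figure D2:**
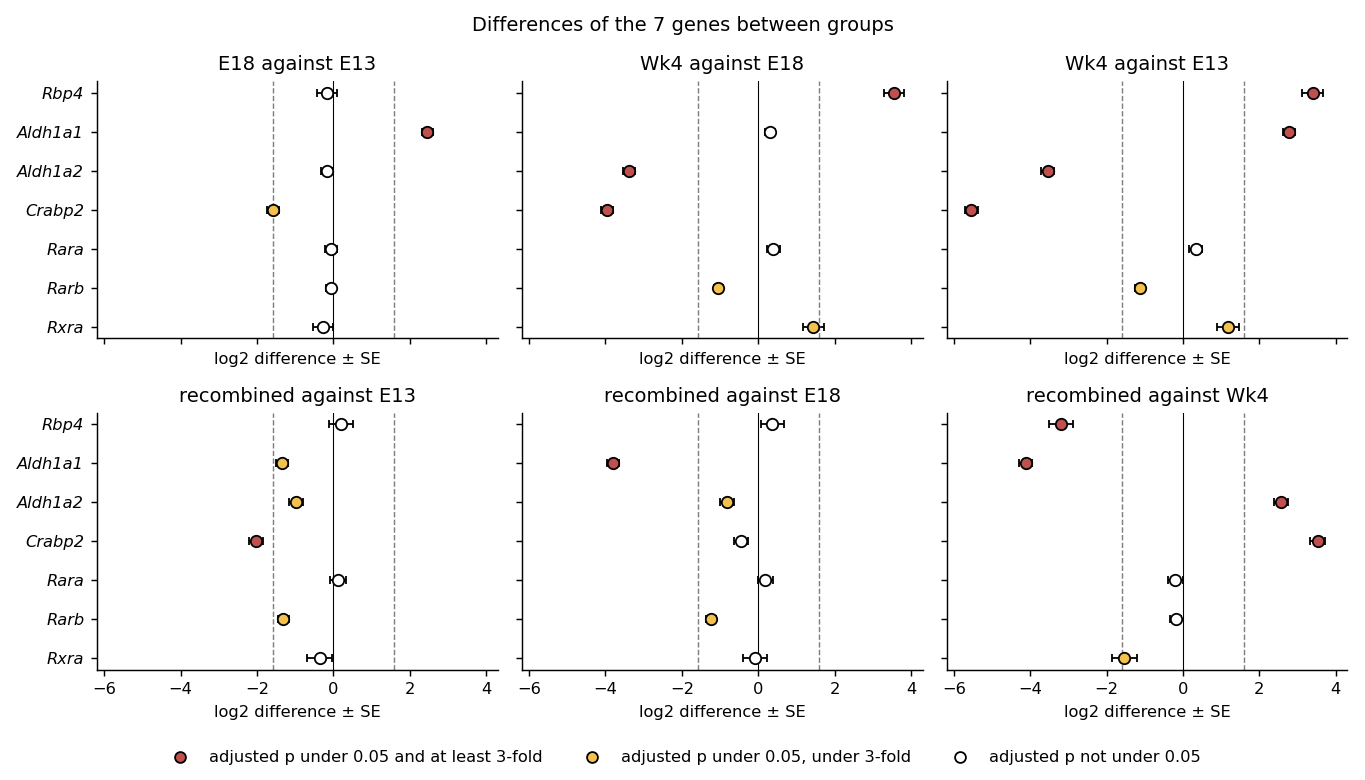
Difference of each of the 7 genes on the log2(signal + 271) scale in the 6 comparisons, with the SE as a bar and dashed lines at 3-fold in either direction; red marks called differences, yellow those with an adjusted p under 0.05 that were under 3-fold. Aldh1a1 lies right of 0 in the kidney comparisons and left of 0 in recombined tissue, and no point of Rara is red or yellow.

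Counted over the 7 genes, the largest numbers of calls came with the comparisons that involve Wk4, as they did on the whole array. In E18 against E13, 1 of the 7 was called, Aldh1a1, which was higher; of all tested probe sets 2.35% were called, 1.94% higher and 0.412% lower. For Wk4 against E18 the count was 3, with Rbp4 higher and Aldh1a2 and Crabp2 lower, beside 11.2% of all probe sets (5.76% higher, 5.43% lower). For Wk4 against E13 it was 4, with Aldh1a1 added on the higher side, beside 17.9% (9.40% higher, 8.47% lower). Recombined tissue had 1 called against E13, Crabp2, which was lower, beside 4.86% of all (3.95% higher, 0.912% lower). Against E18 it had 1, Aldh1a1, also lower, beside 4.41% (2.74% higher, 1.67% lower). Against Wk4 it had 4, Aldh1a2 and Crabp2 higher and Aldh1a1 and Rbp4 lower, beside 15.2% (7.88% higher, 7.32% lower). Rbp4 entered the test only through its Wk4 arrays, so its calls in the comparisons with Wk4 were favoured by the filter.

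By adjusted p alone, 2 of the 7 passed in E18 against E13, where 19.8% of all probe sets did, 5 in Wk4 against E18 (54.7%) and 6 in Wk4 against E13 (60.6%). In recombined tissue 4 passed against E13 (31.0%) and 3 against E18 (28.2%), all of them lower, and 5 against Wk4 (53.0%). The 4 against E13 were Aldh1a1, Aldh1a2, Crabp2 and Rarb. The arrays of both groups did not overlap for 2 of the 7 in E18 against E13 (29.5% of all probe sets), 6 in Wk4 against E18 (58.7%) and 6 in Wk4 against E13 (66.0%). In recombined tissue that held for 4 against E13 (49.5%), 3 against E18 (44.2%) and 5 against Wk4 (67.5%). Both kinds of count include Rbp4 and Rxra in every comparison with Wk4, and these 2 genes passed the filter only through the Wk4 arrays. The median over the 7 was -0.98 in recombined tissue against E13 and -0.44 against E18, where the medians of all tested probe sets were -0.0043 and -0.0012. Recombined tissue also differed from E13 in macrophage markers, of which all 6 were on the array and none at 0, with a summed signal of 90055 to 153793 against 4265 to 5770 at E13, 13203 to 17650 at E18 and 34008 to 37669 at Wk4. Other marker sums were lower in recombined tissue than at E13. Nephron progenitor markers (3 of 6 on the array) summed to 5998 to 12604 in recombined tissue, 23104 to 31508 at E13, 14892 to 23423 at E18 and 2127 to 2495 at Wk4, the order of groups of Crabp2, and all 3 fell against E13. Endothelial markers (4 of 5) summed to 3381 to 9852 in recombined tissue and 18257 to 22990 at E13, and erythroid markers (4 of 5) to 1807 to 2846 and 226374 to 277035. The part of these cells in the results was not tested.

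**Figure D3:**
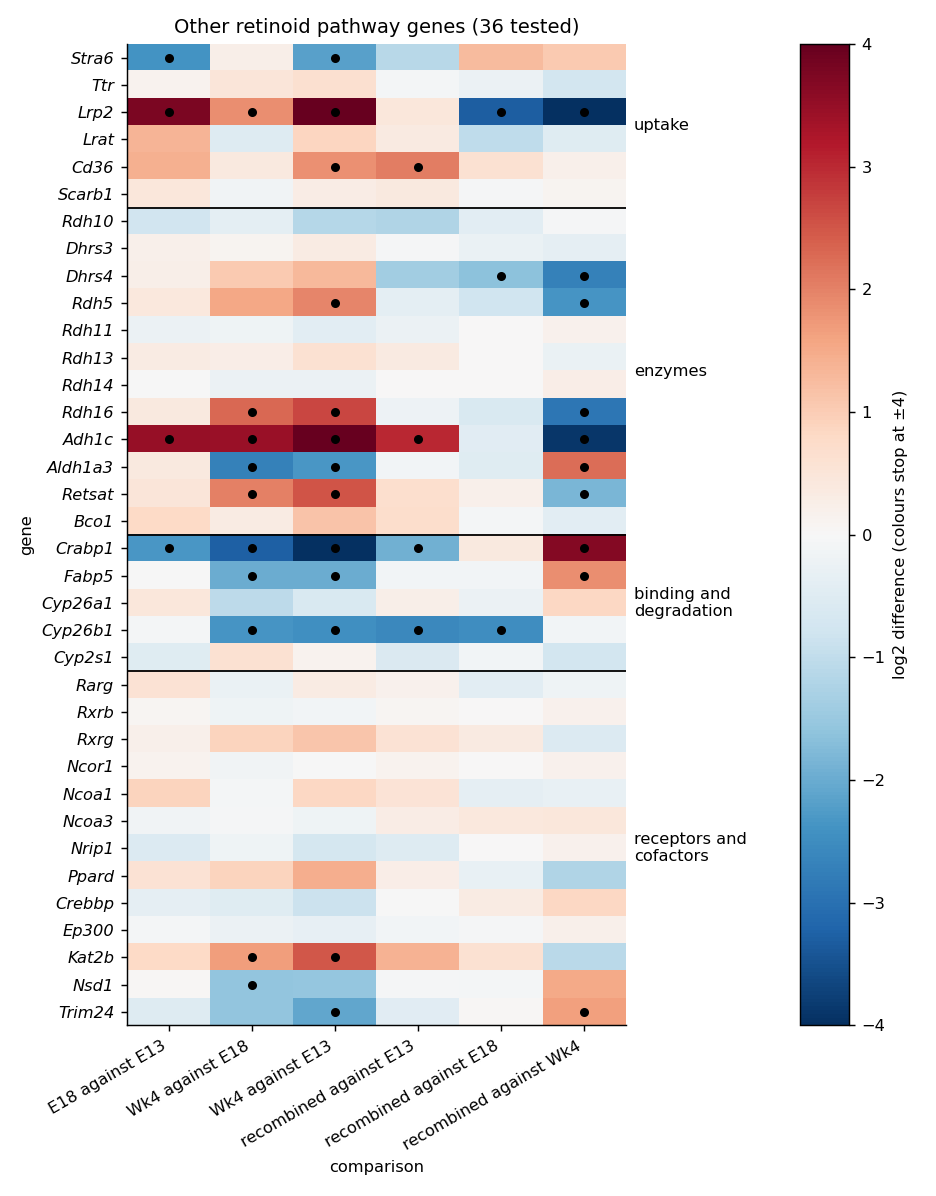
Log2 difference of the 36 other retinoid pathway genes tested (rows, grouped by role) in the 6 comparisons (columns), from blue for lower to red for higher, with a dot where the gene was called. Crabp1, Aldh1a3, Fabp5 and Cyp26b1 are blue in Wk4 against E18, Lrp2, Adh1c, Rdh16 and Retsat are red, and most receptor rows are pale.

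Of 30 genes listed for a known response to retinoic acid, 24 were on the array and 22 were tested, Crabp2 and Rarb among them. In Wk4 against E18, 1 was called higher and 5 lower, beside 5.76% and 5.43% of all tested probe sets, with a median of -0.50. Ret, the receptor of the ureteric bud tip, had 32.4 ± 11.1 at Wk4 and 2848 ± 470 at E18 (-3.35 ± 0.16, adjusted p = 4.03e-10; -2.57 and -0.97 by its dimmer probe sets), and the homeobox genes Meis1 (-2.87 ± 0.15) and Meis2 (-2.45 ± 0.11) fell with it. Tgm2, a transglutaminase, was the one that was called higher (1.60 ± 0.16), but not without E18 replicate 2 (1.57), E18 replicate 4 (1.56) or Wk4 replicate 1 (1.41). Its call was also lost with quantile normalization (1.44) and with 4 times the pseudocount (1.51). In E18 against E13, 1 was called lower, Stra6, and 0 higher by limma, while 4 rose and 9 fell at an adjusted p under 0.05. Of all tested probe sets 1.94% were called higher and 0.412% lower, and 19.8% passed by adjusted p.

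In recombined tissue against E13, 3 of these 22 genes were called higher and 2 lower, beside 3.95% and 0.912% of all tested probe sets. At an adjusted p under 0.05, 4 rose and 12 fell, with a median of -0.49. Of all tested probe sets 31.0% passed by adjusted p and 15.2% fell. Among the 22 genes, Crabp2 and Cyp26b1 were called lower. The 3 called higher were Rarres1 (3.59 ± 0.38), named for its induction by a retinoid, Tgm2 (3.12 ± 0.20) and Egr1 (2.70 ± 0.31), an immediate early gene that many stimuli induce. Tgm2 averaged 35546 ± 5606 in recombined tissue and 3867 ± 807 at E13 (SD, n = 2 and 3). Ret fell by 1.13 ± 0.19 (adjusted p = 0.000406) and was not called. Against E18, Rarres1 (2.30 ± 0.36), Tgm2 (2.01 ± 0.19) and Egr1 (1.74 ± 0.29) were higher and Cyp26b1 lower, though Egr1 was not called without recombined replicate 2 (1.20).

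Wk4 against E18 and recombined tissue against E13 share no arrays, and the genes that were lower in both were counted. Both contrasts came from the same fit and share its estimate of spread for each probe set. The lists of falls are therefore not independent, and the counts are given beside the share of all probe sets. Of the 7, 3 fell in both: Aldh1a2, Crabp2 and Rarb. They were 3 of the 3 that fell at Wk4 and 3 of the 4 that fell in recombined tissue. Of all 22599 tested probe sets 32.6% fell at Wk4, 15.2% in recombined tissue and 10.4% in both. Of the 49 other pathway and responsive genes, 14 fell at Wk4, 13 in recombined tissue and 7 in both: Crabp1, Cyp26b1, Hoxd4, Meis1, Meis2, Rai14 and Ret. Aldh1a1 and Rbp4 show no such match, with 0.31 and 3.57 at Wk4 against E18 and -1.35 and 0.19 in recombined tissue against E13.

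**Figure D4:**
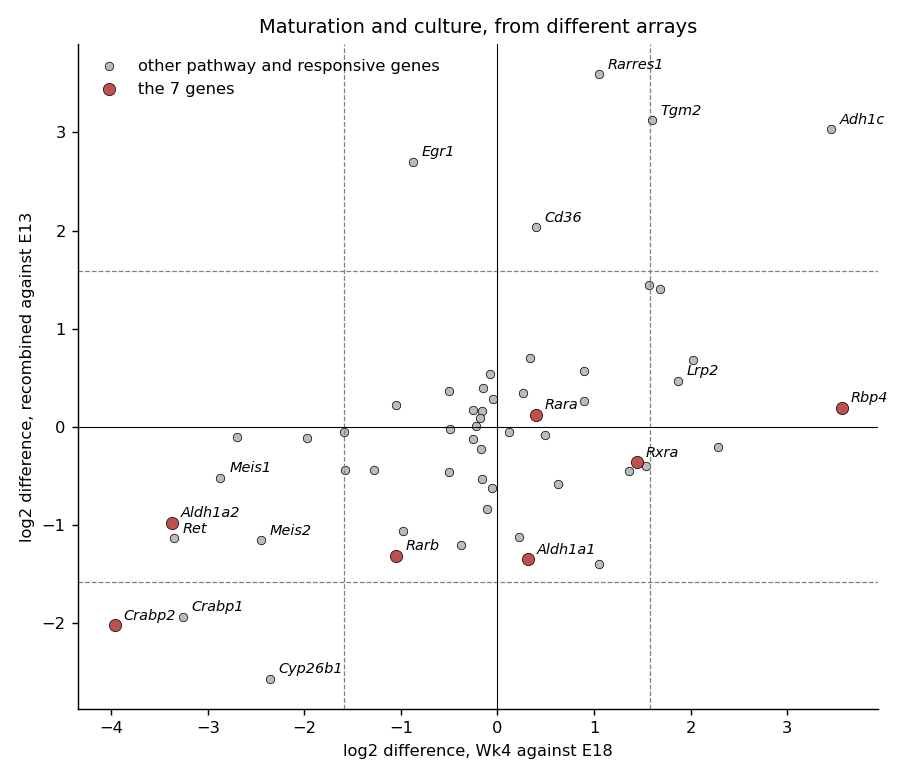
Log2 difference of Wk4 against E18 (x axis) and of recombined tissue against E13 (y axis) for the 7 genes (red) and the 49 other pathway and responsive genes tested (grey), with dashed lines at 3-fold. Crabp2, Aldh1a2 and Rarb lie lower left, below 0 on both axes, with Crabp1, Cyp26b1, Meis2 and Ret, and Aldh1a1 lies right of 0 and below it.

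The genes most like each of the 7 were sought by Pearson's r over the 12 arrays among 11808 other named genes; the arrays share 4 groups, so r mostly reflects group means. For Crabp2 they were Meis2 (r = 0.998), Zfp423 (0.996), a zinc finger transcription factor, and Cbfb (0.996), and 784 genes exceeded 0.95. Meis2 averaged 24815 ± 2789 in recombined tissue, 55543 ± 2834 at E13, 26839 ± 2412 at E18 and 4705 ± 619 at Wk4 (SD), the same order of groups as Crabp2. Aldh1a2 was matched best by Marcksl1 (0.996), Rnf144a (0.996) and Inka1 (0.995), with 725 over 0.95.

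Aldh1a1 had fewer close matches, 41 over 0.95, led by Fhod3 (0.992), an actin regulator, F11r (0.987), a tight junction adhesion protein, and Dsp (0.986), the desmosomal protein desmoplakin. F11r averaged 3321 ± 433 in recombined tissue, 5935 ± 148 at E13, 11635 ± 496 at E18 and 15212 ± 1308 at Wk4. Rarb was closest to Pxylp1 (0.982), Umps (0.981), of pyrimidine synthesis, and Dut (0.979), which hydrolyses dUTP; Dut averaged 13308 ± 378 in recombined tissue, 34041 ± 3485 at E13, 35513 ± 2639 at E18 and 15805 ± 816 at Wk4. Rbp4 was followed by Cyp1a1 (0.994), a xenobiotic-metabolising enzyme, Dhrs7l1 (0.992) and the peroxisomal protease gene Lonp2 (0.992), and Rxra by Mxd4 (0.976), Sertad2 (0.954) and Ccdc30 (0.943). Behind Naa60, Rara was followed by Lama3 (0.910) and Cry2 (0.891), a circadian clock gene.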

How the data were processed

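The deposited values are 1 probe set intensity per array on a linear scale, made by the authors with GCOS, per the submitters' processing notes, from biotinylated cRNA prepared by the Affymetrix protocol, per the labels' protocols. The algorithm was not stated. With 2% trimmed at either end, all arrays had a mean of 2501, so they had been scaled globally, which hides any shift in total RNA. Detection calls were not used. The number of arrays limits the precision.

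The 57 control probe sets were left out. Values were taken as log2(signal + 271), 271 being the 25th percentile of all values, which understates changes of dim probe sets. The filter kept probe sets that exceeded the 40th percentile of at least 2 arrays. Symbols came from the platform annotation: 20826 probe sets had 1 symbol, 436 several and 9780 none. A gene with several kept probe sets was represented by the brightest. Promoters of all 7 genes were matched by symbol in RefSeq's GRCr8 table.

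The 12 arrays were fitted together by limma 3.58.1 under R 4.3.3, with an intensity trend and 8 residual degrees of freedom, after a run on simulated data. The p-values are two-sided and adjusted by Benjamini and Hochberg's method over 22599 probe sets. Named genes were the 7, any called gene and the 2 widest differences of each list, and the 3 genes of highest r. Cyp26a1, Rarg, Rxrb, Rxrg, the uncalled Ret value and single marker genes were named after their values were seen. The genes and lists were chosen with earlier results of these data known. Alternatives covered the pseudocount, scaling, filter, left-out arrays, replicate block, variance trend, arrays fitted, call threshold and probe set averaging; the embryonic sets were added after the data were seen.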

Additional observations from a re-analysis of the deposited data

Results flagged for a closer look

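The 4 E18 arrays were the only group large enough for a test of a stray array, and 2 of the 7 genes had one, where the 95% limit flags about 1 group in 20 by chance. For Crabp2, E18 replicate 2 (6945) lay below the others (8890 to 9243), with a gap of 0.846 of the whole range. For Rbp4, E18 replicate 4 (60.6) lay above the others (14.8 to 22.6), with a gap of 0.831, all of them below the 40th percentile of their arrays.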

How the results depend on the processing

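Of 42 differences (7 genes in 6 comparisons), 960 values under 23 other settings were computed: 929 kept their direction and side of the call, 18 gained a call, 0 lost one, and 13 changed sign, none of them called in either setting. With a 60th percentile filter Rxra was not tested. The count of called genes in E18 against E13 was 1, and 2 without the pseudocount, with median centring, with the replicate block, at 2-fold and by adjusted p alone, and 1 to 2 with an array left out, since Crabp2 sat at the 3-fold limit. At 2-fold and by adjusted p alone, it was 3 and 4 for recombined tissue against E13, 2 and 3 for recombined tissue against E18, and 5 and 5 for Wk4 against E18; with an array left out, recombined tissue against E13 had 1 to 2. Counts in the other comparisons stayed within 1.5 times. A left-out recombined array leaves 1, assumed to vary like the other groups.

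The sign changes were all small. For Rara, E18 against E13 became 0.015 without E13 replicate 1 and 0.017 without E18 replicate 4 or with the replicate block, and recombined tissue against E13 became -0.072 with median centring, -0.035 to 0.28 without a recombined array and -0.070 with the embryonic set. For Rbp4, recombined tissue against E13 became -5e-04 with median centring and -0.18 to 0.57 without a recombined array, and recombined tissue against E18 became -0.012 to 0.74 without one. For Rxra, recombined tissue against E18 became 0.090 without E18 replicate 4, -0.20 to 0.0196 without a recombined array, 0.13 with the replicate block and 0.0319 with the embryonic set. The cause was not tested. Replicate numbers are shared across groups by label only: residuals of same-numbered arrays correlated between -0.172 and 0.312. With the replicate block, Crabp2 in E18 against E13 (-1.62) and Rxra in Wk4 against E18 (1.62) were called, and no other call on the 7 genes changed.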
